A study of Mus musculus with 139 samples.

Results

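Cell cycle genes were followed in mouse lungs over the year after a single dose of fibres. They were 47 genes chosen by name for their part in DNA replication and mitosis, and 45 of them could be measured among 22180 genes on the array. Each gene was read from the array feature paired with its symbol alone, and where several such features existed, from the one with the highest mean. Ccnb1, the main mitotic cyclin, and Ncapg, a condensin subunit, had no feature of their own and were not measured. Mcm7, Tyms, Nusap1 and Top2a also occur in features shared with other genes, which were not used.

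Male mice of a strain given as C57BL/J6, 7 weeks old on arrival, aspirated 50 µL into the airways once, under anaesthesia, from a drop placed on the back of the tongue (pharyngeal aspiration). The vehicle, DM, was a calcium- and magnesium-free phosphate-buffered saline holding glucose, mouse serum albumin and the lung surfactant lipid dipalmitoyl phosphatidylcholine. It was given alone or with 1, 10, 40 or 80 µg of multiwalled carbon nanotubes (MWCNT), which are nested cylinders of graphite sheets, or with 120 µg of crocidolite, a fibrous asbestos. Lungs were taken 1, 6 or 12 months later, so that each of 18 groups had its own mice and each time had its own DM mice. Groups held 8 mice, except 6 at 1 µg MWCNT and 12 months, 5 at crocidolite and 1 month, and 7 at crocidolite and 12 months. The RNA came from whole lung, in which more dividing cells and more of the RNA per dividing cell cannot be told apart. No allele or transgene is named in the labels of any group.

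A cell that divides first licenses its replication origins by loading the MCM helicase, copies its DNA in S phase with newly made deoxynucleotides, and then enters mitosis when CDK1 is switched on by cyclins A and B. The genes for these steps are kept off in resting cells and are switched on in turn. E2F factors drive the replication genes around the start of S phase, and the MuvB complex with B-MYB and FOXM1 drives the mitotic genes in G2. Most cells of the adult lung rest, and division occurs in type II alveolar cells, club cells, endothelium, fibroblasts and macrophages, more so after injury.

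Promoters of these genes are known to carry short sequence elements through which those factors act. Some are printed here because the mitotic members and the replication members, which are described apart in the results, carried different elements. RefSeq (GRCm38.p6) gave windows from 250 bases before to 50 bases after the gene start for 40 of the 47 members. Below are 4 mitotic genes, Mki67 at chr7:135716330-135716629 on the minus strand, Top2a at chr11:99024140-99024439 on the minus strand, Cdk1 at chr10:69352863-69353162 on the minus strand and Plk1 at chr7:122159185-122159484 on the plus strand. The other two are genes of the MCM helicase, Mcm5 at chr8:75109259-75109558 on the plus strand and Mcm6 at chr1:128359656-128359955 on the minus strand. Each runs 5′ to 3′ along its gene, and capitals mark, on either strand, a cell cycle homology region (CHR), a CCAAT box or an E2F site.
Mki67: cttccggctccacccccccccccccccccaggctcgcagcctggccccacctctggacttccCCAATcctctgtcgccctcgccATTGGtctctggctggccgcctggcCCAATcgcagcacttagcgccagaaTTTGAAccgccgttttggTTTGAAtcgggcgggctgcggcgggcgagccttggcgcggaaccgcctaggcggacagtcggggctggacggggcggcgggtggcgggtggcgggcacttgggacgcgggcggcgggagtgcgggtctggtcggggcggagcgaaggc
Top2a: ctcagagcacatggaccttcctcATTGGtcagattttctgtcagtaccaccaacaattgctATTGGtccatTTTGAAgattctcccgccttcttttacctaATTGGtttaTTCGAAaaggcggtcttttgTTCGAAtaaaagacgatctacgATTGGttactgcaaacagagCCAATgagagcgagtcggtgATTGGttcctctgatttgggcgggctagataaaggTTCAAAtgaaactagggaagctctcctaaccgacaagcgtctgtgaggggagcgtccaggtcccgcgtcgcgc
Cdk1: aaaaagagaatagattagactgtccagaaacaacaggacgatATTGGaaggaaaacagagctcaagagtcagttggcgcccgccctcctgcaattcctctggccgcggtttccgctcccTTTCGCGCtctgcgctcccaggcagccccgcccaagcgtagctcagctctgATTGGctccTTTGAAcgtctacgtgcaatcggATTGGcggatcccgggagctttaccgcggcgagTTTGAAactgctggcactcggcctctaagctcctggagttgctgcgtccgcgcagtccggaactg
Plk1: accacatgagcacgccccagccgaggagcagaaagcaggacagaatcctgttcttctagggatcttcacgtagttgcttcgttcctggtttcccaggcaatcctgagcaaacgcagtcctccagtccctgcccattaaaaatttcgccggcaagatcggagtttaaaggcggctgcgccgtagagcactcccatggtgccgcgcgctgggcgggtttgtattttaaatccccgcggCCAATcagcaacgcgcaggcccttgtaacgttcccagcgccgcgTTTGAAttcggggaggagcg
Mcm5: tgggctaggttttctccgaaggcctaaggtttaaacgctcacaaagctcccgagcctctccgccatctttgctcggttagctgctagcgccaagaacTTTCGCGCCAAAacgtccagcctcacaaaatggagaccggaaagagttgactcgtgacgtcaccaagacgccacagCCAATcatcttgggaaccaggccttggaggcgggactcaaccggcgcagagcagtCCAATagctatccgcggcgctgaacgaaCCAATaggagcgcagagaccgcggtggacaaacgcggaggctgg
Mcm6: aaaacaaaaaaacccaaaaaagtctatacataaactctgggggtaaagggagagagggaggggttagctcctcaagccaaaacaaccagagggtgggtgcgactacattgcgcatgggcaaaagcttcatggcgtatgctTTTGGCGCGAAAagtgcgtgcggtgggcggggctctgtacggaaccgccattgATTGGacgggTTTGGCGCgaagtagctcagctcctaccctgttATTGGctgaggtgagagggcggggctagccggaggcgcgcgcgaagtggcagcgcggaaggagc

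The CHR was searched as TTTGAA and TTCGAA, the CCAAT box as CCAAT, and the E2F site as TTTCCCGC, TTTCGCGC, TTTGGCGC and TTTGCCGC, on both strands. The windows of Mki67, Top2a, Cdk1 and Plk1 held both a CHR and a CCAAT box, whereas those of Mcm5 and Mcm6 held CCAAT boxes and E2F sites and no CHR letters. In Mki67 the CHR matches began 116 and 98 bases before the start, next to 3 CCAAT boxes further upstream. Top2a had 4 CHR and 6 CCAAT matches, the most of these 6 windows. In Mcm5 and Mcm6 pairs of E2F sites lay back to back on opposite strands and shared letters. Of 29 mitotic members with a window, 22 (75.9%) held a CHR, against 3 of 11 (27.3%) replication, nucleotide supply and transcription factor members and 21.7% of all 27025 genes with a window. An E2F site lay in 6 of those 11 (54.5%), in 2 of the 29 mitotic members (6.9%) and in 2.6% of all genes. CCAAT boxes were in 79.3% and 63.6% of the members of those groups and in 41.1% of all genes, and the pair of CHR and CCAAT in 69.0%, 27.3% and 8.6%. Elements of different kinds overlapped in 1 member and in 0.2% of all genes. These are letter matches, which do not show that a factor binds there.

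The samples carried lung markers. Sftpc, surfactant protein C of type II cells, lay between 12.26 and 12.74 on the log2 scale in all mice, and Scgb1a1, the club cell secretory protein, between 12.25 and 12.81. Ager, of type I alveolar cells, varied more, from 9.52 through 11.36 to 11.73. Its lowest mouse lay at 10.92 or above in every 1-month group and between 9.52 and 10.44 in every later group except crocidolite at 12 months (11.33). Array medians lay between 4.01 and 4.34. Among the mice, 14 had an array over 2 log2 units above the median array in skeletal muscle or squamous epithelium markers. No mouse reached that limit in thymocyte markers, whose highest list mean was 4.57. Several markers of these lists reached levels far from the rest. Krt4, a keratin of the oesophagus lining, had a median of 3.35 and a maximum of 12.11, Krt13, its keratin partner, 3.21 and 10.72, Acta1, skeletal actin, 3.93 and 10.64, and Dntt, the terminal transferase of thymocytes, 1.97 and 5.15. Some array titles carry the word "replacement", here called the title word, whose meaning is not given, and its share differed between groups (5 of 7 crocidolite and 3 of 8 DM mice at 12 months). Differences were tested with limma in one model of all 18 groups, and a gene was called when its Benjamini-Hochberg adjusted p over all 22180 genes was under 0.05. A difference is always a log2 difference between group means, and its error is the standard error (SE) unless an SD is given.

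Mki67, whose product Ki-67 coats mitotic chromosomes and marks dividing cells, rose in 5 of the 15 exposed groups. In DM lungs its log2 signal ran from 5.94 through a median of 6.16 to 6.76 at 1 month, from 5.86 through 6.11 to 6.64 at 6 months, and from 5.57 through 6.10 to 6.50 at 12 months. The lungs given 80 µg MWCNT ran from 6.77 through 6.97 to 7.40 at 1 month, from 6.18 through 6.45 to 7.20 at 6 months and from 6.29 through 6.60 to 6.70 at 12 months. The groups were separate at 1 month, where all 8 exposed mice lay above every DM mouse, and they overlapped at the later times. The difference was 0.71 ± 0.14 at 1 month (adjusted p = 0.000388) and 0.52 ± 0.14 at 6 months (adjusted p = 0.0493), and at 12 months it was 0.46 ± 0.14 and did not pass (adjusted p = 0.172).

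After crocidolite, Mki67 was 6.60, 6.60, 6.73, 7.12 and 7.31 in the 5 mice at 1 month. It ran from 6.14 through 6.71 to 7.15 at 6 months and from 6.57 through 6.89 to 7.34 at 12 months. At 12 months all 7 crocidolite mice lay above every DM mouse, and at 1 month 2 of 5 did. The differences were 0.61 ± 0.16 (adjusted p = 0.0101), 0.53 ± 0.14 (adjusted p = 0.0159) and 0.81 ± 0.15 (adjusted p = 3.53e-05) at 1, 6 and 12 months. The lower MWCNT doses did not pass at any time. Of these, 40 µg at 1 month came nearest, with 6.47 through 6.82 to 7.08 and a difference of 0.53 ± 0.14 (adjusted p = 0.0543).

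Top2a, the topoisomerase that untangles sister chromatids, also rose in 5 exposed groups. DM lungs ran from 5.15 through 5.24 to 5.46 at 1 month, from 4.28 through 4.72 to 5.38 at 6 months and from 4.74 through 5.16 to 5.36 at 12 months. At 1 month the lungs given 40 µg ran from 5.60 through 5.72 to 6.05 and those given 80 µg from 5.63 through 5.89 to 6.11, and all 8 mice of each group lay above every DM mouse. The 80 µg difference was 0.60 ± 0.14 (adjusted p = 0.00236), and the 40 µg difference of 0.49 ± 0.14 did not pass (adjusted p = 0.0593). At 6 months Top2a was higher at 40 µg (5.20 through 5.45 to 5.97; difference 0.73 ± 0.14, adjusted p = 0.00132), at 80 µg (4.98 through 5.47 to 6.08; 0.70 ± 0.14, adjusted p = 0.000535) and with crocidolite (4.75 through 5.65 to 6.08; 0.78 ± 0.14, adjusted p = 3.14e-05). In each of these 3 groups 6 of 8 mice lay above every DM mouse. The DM mice of 6 months were themselves 0.50 ± 0.14 below those of 1 month, a difference that did not pass (adjusted p = 0.103).

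At 12 months Top2a was called in the crocidolite group and in none of the MWCNT groups. The crocidolite mice ran from 5.30 through 5.59 to 6.05 and 6 of 7 lay above every DM mouse, with a difference of 0.51 ± 0.14 (adjusted p = 0.0108). The 80 µg mice kept to a narrow band from 5.20 through 5.31 to 5.40, within which 1 of 8 lay above every DM mouse, and their difference was 0.16 ± 0.14 (95% interval from -0.11 to 0.43).

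**Figure D1:**
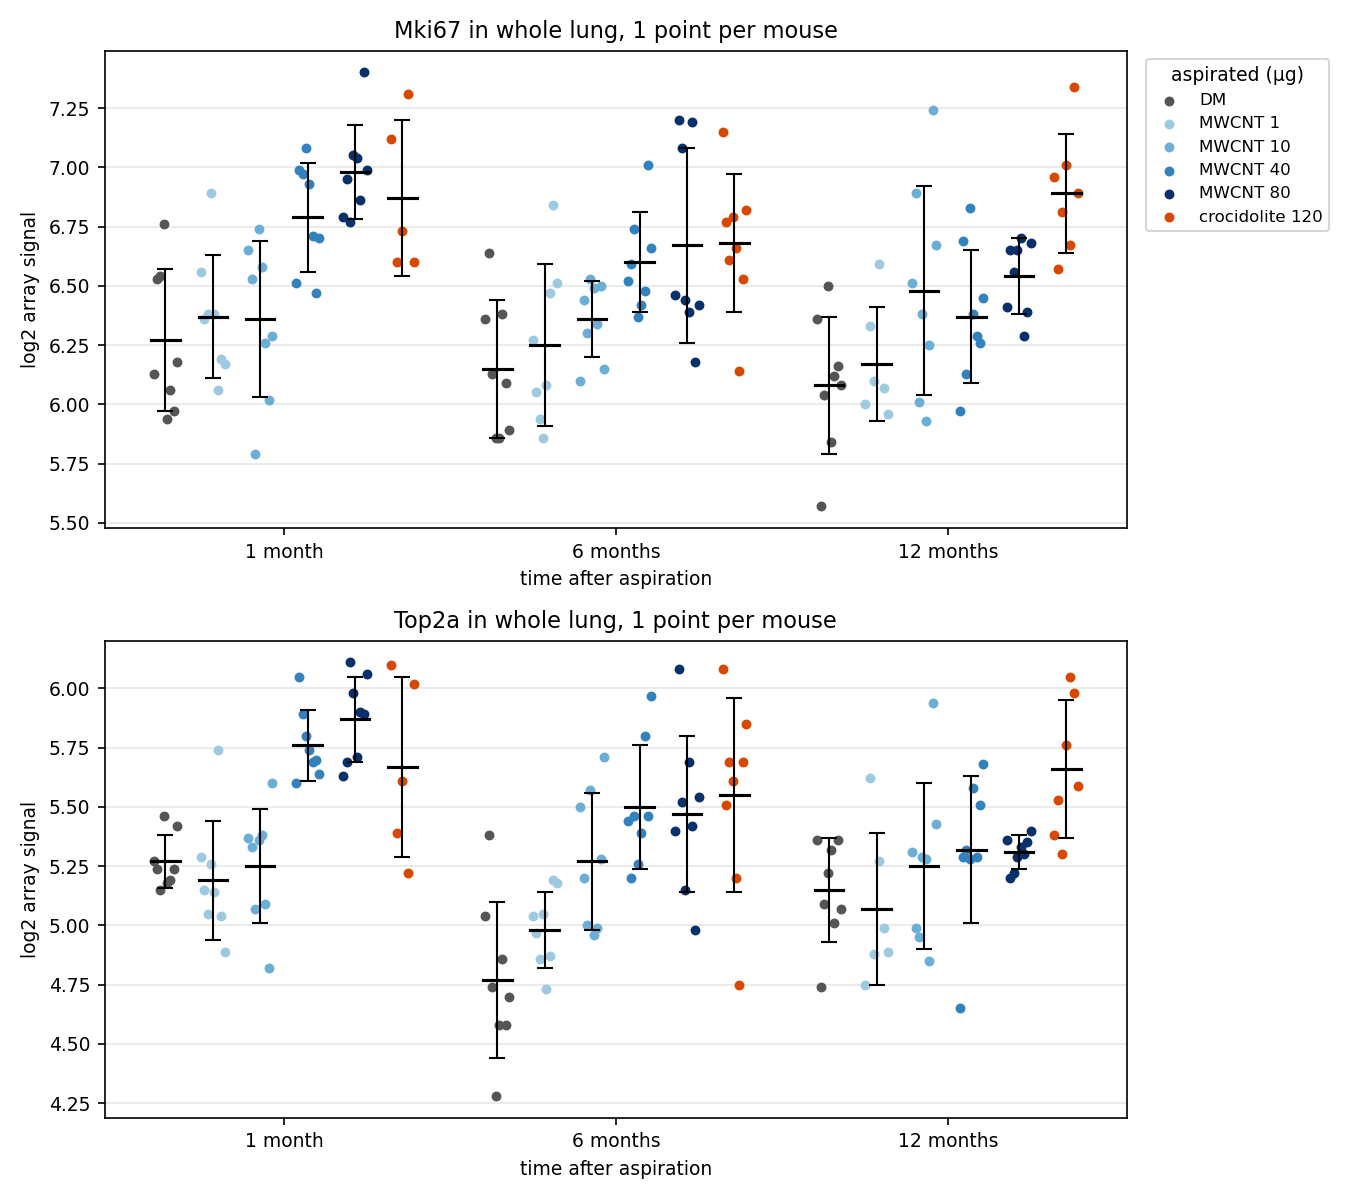
Log2 array signal of Mki67 (top) and Top2a (bottom) in whole lung, 1 point per mouse, by time after aspiration on the horizontal axis and by colour for the aspirated material (µg). Black lines and bars give the mean ± SD of each group. At 1 month all 80 µg MWCNT points lie above all DM points in both panels, and at 12 months all crocidolite points do so for Mki67.

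Across all members, 24 of the 45 were called higher in at least 1 exposed group and none was called lower in any. Of the 31 mitotic members 20 were among the 24, and of the 14 replication, nucleotide and transcription factor members 4 were. The share of all genes called in at least 1 exposed group was not counted, so these pooled counts have no background beside them. In single exposed groups 0.0% to 4.31% of all genes were called higher. Mki67 and Top2a were called in 5 groups each, and Bub1b, Plk1, Nek2, Tpx2, Prc1 and Ect2 in 3 each. The calls lay in the 2 highest MWCNT doses at 1 or 6 months and in crocidolite at every time.

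At 1 µg MWCNT no member was called at 1, 6 or 12 months, and of all genes 0.0% were called higher at each time. The members' median difference was 0.01, 0.03 and 0.08. At 10 µg no member was called either, beside 0.018%, 0.00451% and 0.0% of all genes at 1, 6 and 12 months. With 40 µg no member was called at 1 month (0.555% of all genes) or at 12 months (0.0271%), and 2 were called at 6 months (0.207%). At 1 month 39 of the 45 members nevertheless lay above DM at 40 µg, with a median difference of 0.22 beside 0.00 over all genes, and 28.9% of the members had an unadjusted p under 0.05 beside 6.47% of all genes.

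**Figure D2:**
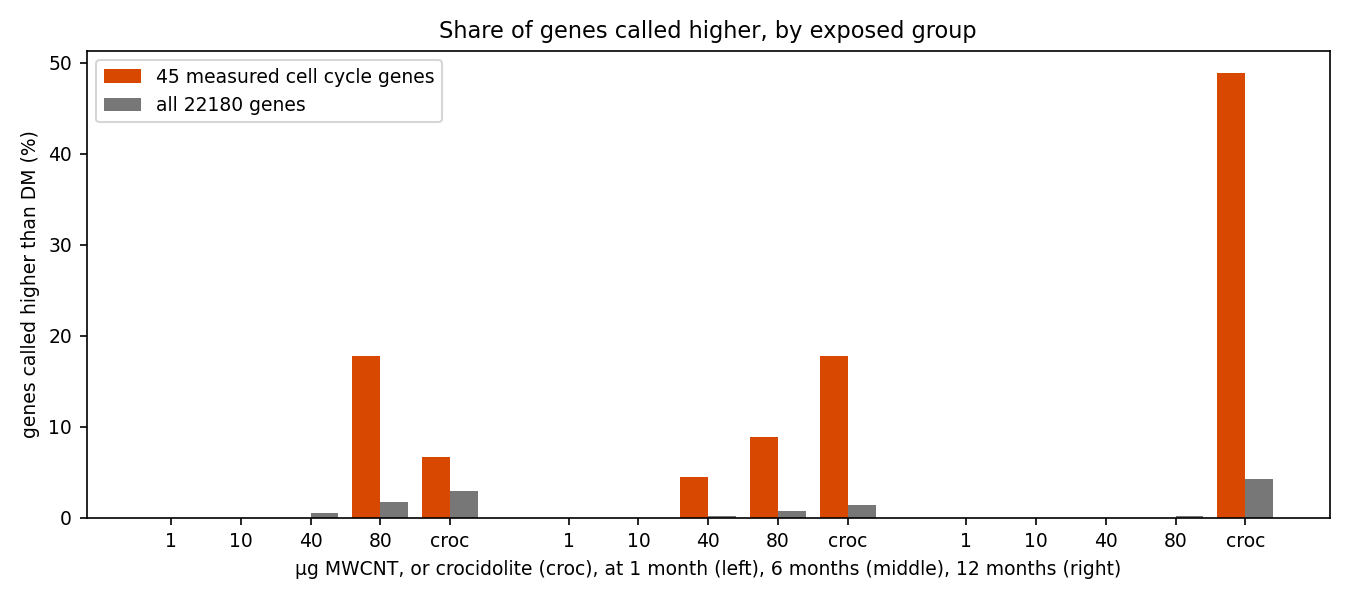
Percent of genes called higher than DM of the same time (adjusted p under 0.05) in each of the 15 exposed groups, for the 45 measured cell cycle genes (orange) and for all 22180 genes (grey). The tallest orange bar, at crocidolite and 12 months, stands at 48.9% beside 4.31% of all genes, and the bars of the members at 80 µg MWCNT fall from 17.8% at 1 month to 8.89% at 6 months and 0.0% at 12 months.

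One month after 80 µg MWCNT, 8 members rose, 17.8% of the 45, beside 1.69% of all genes. They were Mki67, Top2a, Nek2, Bub1b, Cenpf, Tpx2, Plk1 and Mcm6, so that 7 of 31 mitotic members and 1 of the other 14 were called. All 31 mitotic members lay above DM, with a median difference of 0.39, and 12 of the other 14 did, with a median of 0.20, while the median over all genes was -0.01. By unadjusted p under 0.05 there were 26 members (57.8%) beside 10.1% of all genes. The fold changes of the called members ran from 1.26 (Mcm6) to 1.64 (Mki67).

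Nek2, a kinase that splits the centrosomes before the spindle forms, ran from 4.94 through 5.43 to 5.85 in DM and from 5.59 through 6.09 to 6.47 at 80 µg, a difference of 0.65 ± 0.16 (adjusted p = 0.00845). Of its exposed mice 6 of 8 lay above every DM mouse. Bub1b, the checkpoint protein BubR1 that holds anaphase until chromosomes are attached, ran from 4.25 through 4.48 to 4.82 in DM and from 4.67 through 5.10 to 5.30 at 80 µg (difference 0.54 ± 0.12, adjusted p = 0.00167). Cenpf, a kinetochore protein of G2 and mitosis, ran from 3.67 through 4.17 to 4.61 in DM and from 4.42 through 4.78 to 4.84 at 80 µg (0.54 ± 0.11, adjusted p = 0.00102). For both genes the groups overlapped and 6 of 8 exposed mice lay above all DM mice.

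Tpx2, which activates Aurora A kinase and nucleates spindle microtubules, ran from 4.65 through 4.90 to 5.32 in DM and from 5.09 through 5.46 to 5.74 at 80 µg, with 7 of 8 exposed mice above every DM mouse (0.52 ± 0.13, adjusted p = 0.0114). Plk1, the kinase of mitotic entry and spindle assembly, differed by 0.49 (adjusted p = 0.0365). Mcm6, a subunit of the replicative helicase, ran from 5.99 through 6.25 to 6.44 in DM and from 6.36 through 6.57 to 6.68 at 80 µg. Its difference of 0.33 ± 0.10 stood just under the threshold, with an adjusted p that rounds to 0.05, and 7 of 8 exposed mice lay above every DM mouse. When arrays with the title word were left out, which removed 3 of the 80 µg and 4 of the DM mice, 1 member was called in this comparison, Nek2. Mki67 then differed by 0.72 with an adjusted p of 0.0682.

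Crocidolite at 1 month gave 3 called members, 6.67% of the 45, beside 2.93% of all genes. Bub1b was 4.57, 4.99, 5.09, 5.14 and 5.25 in the 5 mice (difference 0.51 ± 0.13, adjusted p = 0.00796), and 4 of them lay above every DM mouse. Cenpf was 4.42, 4.46, 4.62, 4.66 and 4.77 (0.42 ± 0.13, adjusted p = 0.0366), and 3 of 5 mice lay above every DM mouse. The third was Mki67. Top2a, at 5.22, 5.39, 5.61, 6.02 and 6.10, did not pass (0.40 ± 0.15, adjusted p = 0.12). Of the members 39 of 45 lay above DM, with a median difference of 0.24. The count rested on single mice and settings: it was 1 without crocidolite mouse 4, 5 without mouse 3, and 0 without arrays of low correlation, which include mice 4 and 5, without arrays that hold the title word, or with these groups fitted alone.

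The MWCNT dose trend at 1 month, a slope per unit of log2 of the dose in µg plus 1, was called upward for 17 members (37.8%) beside 2.56% of all genes. Mki67 rose by 0.11 ± 0.02 and Top2a by 0.10 ± 0.02 per unit. Among the others were Ccna2, the cyclin of S phase and mitotic entry, Rrm2, the ribonucleotide reductase subunit that sets deoxynucleotide supply, Birc5, the survivin of the chromosomal passenger complex, and the kinesins Kif11, Kif20a and Kif2c. Rrm2 was read from the brighter of its 2 features. Averaging the features of each gene ended 3 calls of single members across all comparisons. The steps seen at 1 month were uneven in dose. The mean over the 45 members was 4.83 in DM, 4.84 at 1 µg and 4.80 at 10 µg, and 5.04 at 40 µg and 5.16 at 80 µg. Without arrays of the title word the trend was called for 4 members. Among genes above the median level, where 22 members were tested, it was called for 9.

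**Figure D3:**
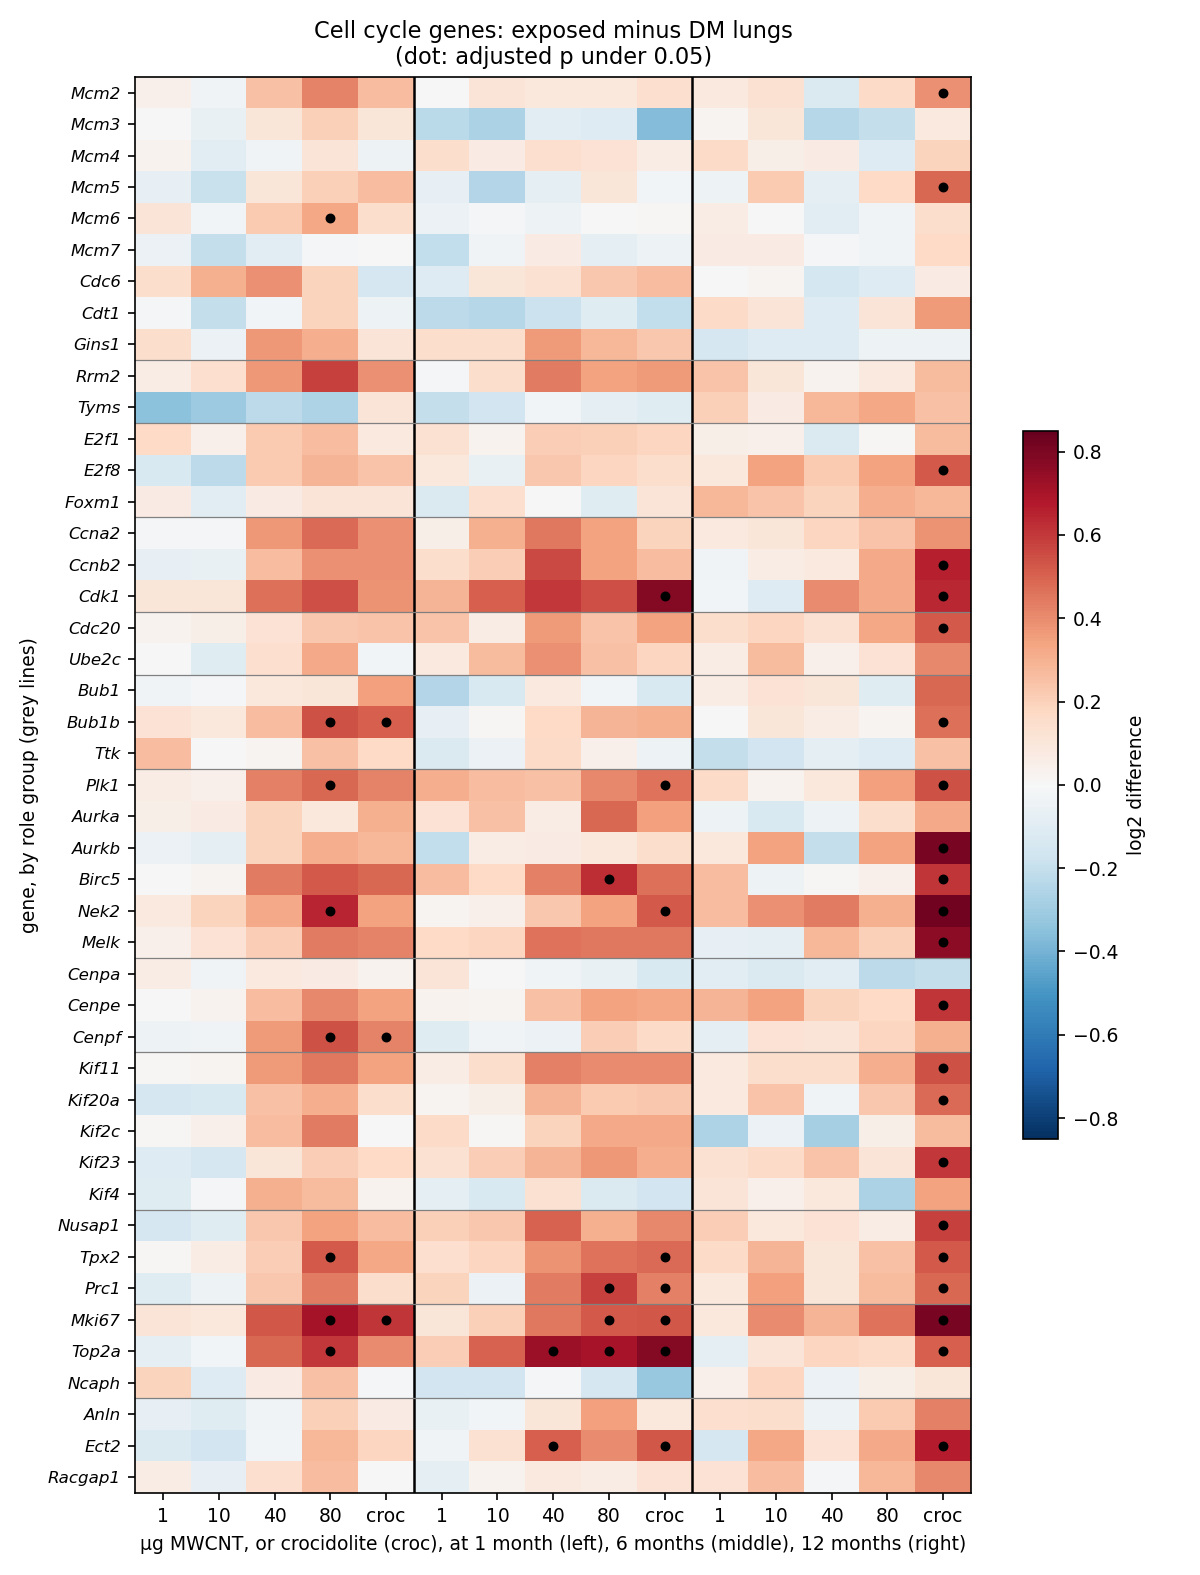
Log2 difference from DM of the same time (colour, red higher and blue lower) for the 45 measured members in rows, ordered by role from replication licensing at the top to cytokinesis at the bottom, and the 15 exposed groups in columns. Black dots mark adjusted p under 0.05: they number 8 at 80 µg MWCNT and 1 month and 22 at crocidolite and 12 months, and none lies in a blue cell.

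At 6 months after aspiration, the called members were 2 at 40 µg MWCNT (Top2a and Ect2), 4 at 80 µg (Top2a, Birc5, Prc1 and Mki67; 8.89% of the 45 beside 0.803% of all genes) and 8 with crocidolite (17.8% beside 1.45%). All are mitotic members. The mitotic members' median difference was 0.34 at 80 µg and 0.32 with crocidolite, and that of the replication, nucleotide and transcription factor members was 0.10 and 0.08. The dose trend at 6 months was called for 7 members beside 1.18% of all genes: Top2a, Prc1, Mki67, Ect2, Ccna2, Melk and Tpx2. Melk is a kinase that peaks in mitosis. Some alveolar macrophage markers also differed at 6 months: 2 of 9 were higher at 40 µg, at 80 µg and with crocidolite. With crocidolite 1 marker, Car4, was lower (-0.43 ± 0.10, adjusted p = 0.00533). The list's median difference was 0.11, 0.41 and 0.33, and its mean ran from 6.75 to 7.67, 6.98 to 7.91 and 6.78 to 7.35, against 6.52 to 7.26 in DM. Atp6v0d2, a proton pump subunit, differed by 1.18, 1.46 and 1.63, and the surfactant protein Sftpd, the 1 lung-defining gene called of 10, by 0.49, 0.62 and 0.61. The part of macrophages or of other lung cells in the members' values was not tested. Which cells gave each marker its signal in whole lung was not identified.

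Prc1, which bundles the microtubules of the central spindle, ran from 4.13 through 4.89 to 5.39 in DM and from 5.06 through 5.35 to 5.95 at 80 µg (0.58 ± 0.13, adjusted p = 0.00424). Birc5 ran from 1.41 through 1.62 to 2.51 in DM and from 2.04 through 2.37 to 2.80 at 80 µg (0.63 ± 0.17, adjusted p = 0.048). Birc5 was the dimmest measured member, with a mean of 2.21 at the 16.2 percentile of all gene means, and its signal was not shown to be above background, so the size of its differences is uncertain. For both, 3 of 8 exposed mice lay above every DM mouse. Ect2, the exchange factor that switches on RhoA for the cleavage furrow, ran from 5.70 through 5.83 to 6.49 in DM and from 5.90 through 6.46 to 6.75 at 40 µg (0.51 ± 0.12, adjusted p = 0.0322), and 4 of 8 exposed mice lay above every DM mouse.

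Under crocidolite at 6 months Cdk1, the kinase that drives mitotic entry, ran from 3.79 through 4.38 to 4.79, against 3.02 through 3.45 to 4.21 in DM, and 5 of 8 mice lay above every DM mouse (0.78 ± 0.21, adjusted p = 0.0142). Nek2 ran from 5.78 through 6.12 to 6.34 against 5.35 through 5.59 to 5.86, and 7 of 8 mice lay above every DM mouse (0.52 ± 0.16, adjusted p = 0.0483). Ect2 ran from 5.97 through 6.41 to 7.03 (0.53 ± 0.12, adjusted p = 0.0032). Tpx2 ran from 4.78 through 5.12 to 5.48 against a wide DM range of 3.93 through 4.66 to 5.41, so that 1 of 8 mice lay above every DM mouse (0.48 ± 0.13, adjusted p = 0.0192). Plk1 and Prc1 were called as well, with differences of 0.46 and 0.43. The lowest differences were those of Mcm3 (-0.37, adjusted p = 0.112), a helicase subunit, and Ncaph (-0.32, adjusted p = 0.207), a condensin subunit.

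The mice given 80 µg MWCNT or crocidolite were the most spread at 6 months. The mean over the members had an SD of 0.25 and 0.22 in these groups, against 0.06 to 0.17 in all others. Mice are numbered within their group in order of deposition. One 80 µg mouse, number 2, had the highest mean of all mice (5.37) and was the highest of its group for 32 of the 45 members and for 17.0% of all genes. One crocidolite mouse, number 1, had a mean of 5.26, was the highest of its group for 24 members and 15.3% of all genes, and also had the highest thymocyte list (mean 4.57, group median 3.49), with Dntt at 5.15. Without that 80 µg mouse 1 member was called in place of 4, and without mouse 7, the lowest of its group, 7 were. Without that crocidolite mouse 3 were called in place of 8, and without mouse 6, the lowest of that group, 12 were. Leaving out the mice high in other tissue markers, crocidolite mice 3 and 8 among them but not mouse 1, gave 2 called members with crocidolite and 2 at 80 µg. The 80 µg count was 0 without arrays of the title word and 0 with its groups fitted alone, and the crocidolite count fitted alone was 5.

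**Figure D4:**
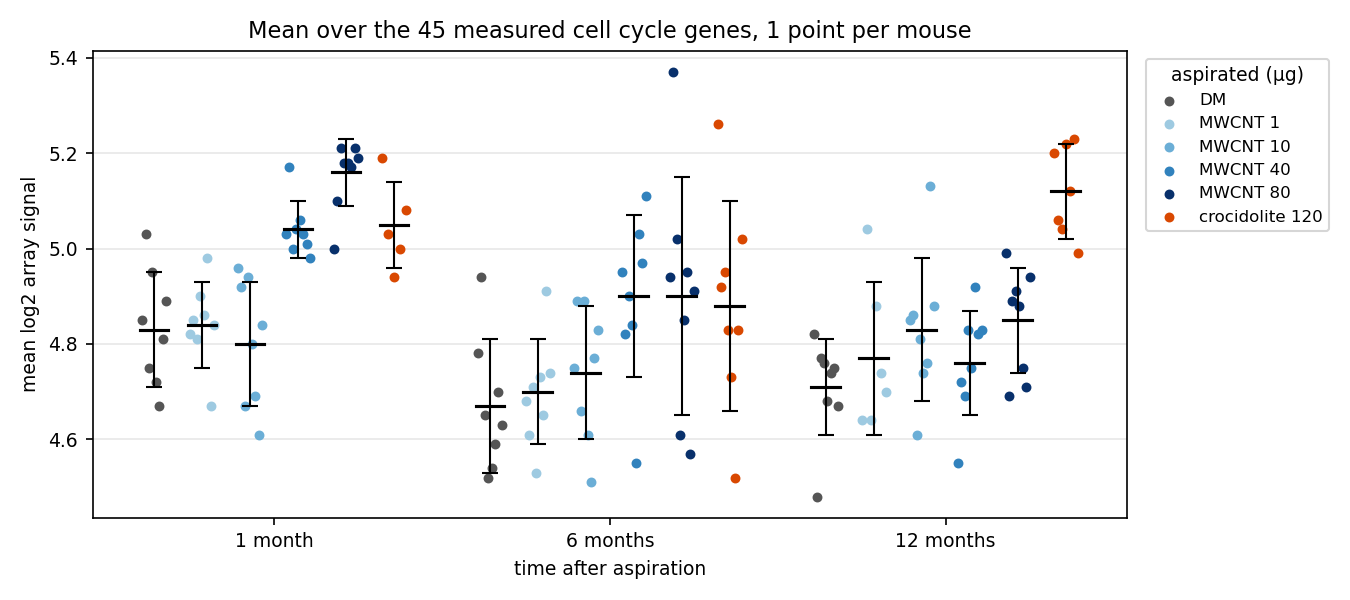
Mean log2 signal over the 45 measured cell cycle genes, 1 point per mouse, by time after aspiration and by colour for the aspirated material (µg), with the mean ± SD of each group in black. The 8 points at 80 µg MWCNT and 1 month lie between 5.00 and 5.21, those at crocidolite and 12 months between 4.99 and 5.23, and the 6-month groups given 80 µg MWCNT or crocidolite spread more widely, with the highest mouse at 5.37.

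At 12 months after crocidolite, 22 of the 45 members were higher than in DM lungs (48.9%), beside 4.31% of all genes. Of the 31 mitotic members 19 were called and 30 lay above DM, with a median difference of 0.51. Of the 14 replication, nucleotide and transcription factor members 3 were called and 13 lay above DM, with a median of 0.26. The median over all genes was -0.01. The called members rose by 1.31-fold (Mcm2) to 1.77-fold (Nek2). The mean over the members was 4.99 to 5.23 in the 7 crocidolite mice and 4.48 to 4.82 in the 8 DM mice, so that the groups did not overlap.

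The 4 largest differences were those of the kinases Nek2, Aurkb and Melk and of Mki67. Nek2 ran from 5.29 through 5.55 to 6.41 in DM and from 5.90 through 6.48 to 6.98 with crocidolite, with 5 of 7 mice above every DM mouse (0.82 ± 0.17, adjusted p = 0.00021). Aurkb, the kinase that corrects faulty attachments of chromosomes, differed by 0.81 (adjusted p = 0.00314), Melk by 0.76 (adjusted p = 0.000113), the dim Birc5 by 0.61 (adjusted p = 0.0227) and Plk1 by 0.54 (adjusted p = 0.00715). Of the 6 mitotic kinases and survivin, 5 were thus called, and Aurka, the centrosomal Aurora kinase, was not (0.32, adjusted p = 0.215).

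Ccnb2, a B-type cyclin, ran from 5.01 through 5.48 to 5.86 in DM and from 5.81 through 6.20 to 6.44 with crocidolite (0.66 ± 0.16, adjusted p = 0.0034), and 6 of 7 mice lay above every DM mouse. Its partner Cdk1 differed by 0.64 (adjusted p = 0.0486). Cdc20, the activator of the anaphase-promoting complex, ran from 4.50 through 4.81 to 5.15 and from 4.87 through 5.36 to 5.64 (0.52 ± 0.12, adjusted p = 0.00232), and Bub1b, from the checkpoint that restrains it, from 3.96 through 4.47 to 4.73 and from 4.67 through 4.95 to 5.08 (0.47 ± 0.12, adjusted p = 0.00667). In both, 6 of 7 mice lay above all DM mice.

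Cenpe, the kinesin that carries chromosomes to the spindle equator, ran from 3.72 through 4.14 to 4.42 in DM and from 4.36 through 4.70 to 5.36 with crocidolite (0.61 ± 0.14, adjusted p = 0.00159). Cenpa, the histone variant of centromeres, was one of the members below DM (-0.20, adjusted p = 0.429), as was Gins1 of the replication fork (-0.04). Kif23, a motor of the central spindle, ran from 4.45 through 5.01 to 5.35 in DM and from 5.39 through 5.48 to 5.81 with crocidolite, where all 7 mice lay above every DM mouse (0.60 ± 0.14, adjusted p = 0.00166). Nusap1, which stabilises spindle microtubules, ran from 3.93 through 4.68 to 4.98 and from 4.67 through 5.13 to 5.76 (0.58 ± 0.17, adjusted p = 0.0227), and Tpx2 and Prc1 of the same role were called too. Ect2 ran from 5.59 through 5.90 to 6.14 and from 6.23 through 6.67 to 6.98, again with all 7 mice above every DM mouse (0.67 ± 0.13, adjusted p = 5.52e-05).

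Of the earlier steps of the cycle, fewer were called. Mcm5 ran from 5.09 through 5.50 to 5.67 in DM and from 5.48 through 5.93 to 6.26 with crocidolite, with 6 of 7 mice above every DM mouse (0.49 ± 0.12, adjusted p = 0.00317). Mcm2 differed by 0.39 (adjusted p = 0.0476), and the other MCM subunits by 0.08 (Mcm3) to 0.19 (Mcm4), none of which passed. E2f8, an E2F that represses replication genes late in S phase, ran from 3.24 through 3.87 to 4.23 and from 4.09 through 4.42 to 4.50 (0.52 ± 0.15, adjusted p = 0.0158). E2f1 (0.27, adjusted p = 0.268), which activates them, and Foxm1 (0.28, adjusted p = 0.301), which activates mitotic genes, did not pass.

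The crocidolite count at 12 months was 18 to 23 when single mice were left out, and 4 when arrays of the title word were left out, which kept 2 of 7 crocidolite and 5 of 8 DM mice and a median difference of 0.43. Among genes above the median level 13 of the 22 members tested were called. Markers of alveolar macrophages differed as well: 4 of 9 were higher and 1 lower, with a median difference of 0.37. The list's mean was 7.32 to 7.65 in the crocidolite mice against 6.68 to 7.33 in DM. Within it Atp6v0d2 differed by 1.83 ± 0.25 (adjusted p = 1.03e-08) and Marco, a scavenger receptor, by 1.02 ± 0.28 (adjusted p = 0.00932). The marker called lower was Car4 (-0.37 ± 0.11, adjusted p = 0.0201). In whole lung the cells that gave a marker its signal were not identified, so the list is not a measure of macrophages alone. The thymocyte list had none called and means of 3.37 to 3.82 against 3.42 to 3.81. The part of macrophages in the members' rise was not tested. Lung-defining genes moved too: 3 of 10 were higher, with a median difference of 0.23, among them the surfactant proteins Sftpd (0.74 ± 0.11, adjusted p = 5.11e-07) and Sftpa1 (0.31 ± 0.06, adjusted p = 0.000185). That list's mean was 10.64 to 10.78 against 10.05 to 10.63 in DM, without overlap, and its part in the members' rise was not tested. Of the other lists, 1 of 10 squamous markers was higher (Sprr1a), 1 of 10 erythroid and marrow progenitor markers was lower (Kit), and none of 6 germinal centre B cell markers or 11 skeletal muscle markers was called. Kit and Cd34 had means of 9.11 and 8.98 over all mice, and the brightest other measured marker of that list was Epor at 3.9. Kit is therefore not read as a sign of those progenitors. At 1 month after 80 µg MWCNT 3 of the 9 macrophage markers were higher, but the list's median difference was -0.05. The list's mean was 7.21 to 7.85 against 7.01 to 7.81 in DM. Of the lung-defining genes 2 of 10 were higher there, Sftpd (0.93 ± 0.11, adjusted p = 1.48e-10) and Sftpa1 (0.25 ± 0.06, adjusted p = 0.0043). At 1 month after crocidolite 3 macrophage markers were higher and 1, Fabp1, was lower (-1.11 ± 0.34, adjusted p = 0.0306). In that group 2 lung-defining genes were higher and 1 lower. Of 10 thymocyte markers 2 were lower there, beside 2.83% of all genes. These were Cd8b1 (-0.77 ± 0.2, adjusted p = 0.00826) and Themis (-0.67 ± 0.2, adjusted p = 0.0282). Dntt and Rag2 of that list had medians of 1.97 and 1.99 over all mice, and the count is not read as a change in thymocytes.

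At 12 months after 80 µg MWCNT no member passed, beside 0.158% of all genes called higher, although 35 of 45 lay above DM with a median difference of 0.16, and 11 had an unadjusted p under 0.05. The dose trend at 12 months called no member either, beside 0.591% of all genes, and 12 members had an unadjusted p under 0.05. Quantile normalization, centring of arrays on their medians and the restriction to genes above the median level each called 2 members in that trend.

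A direct comparison of the fibres at 12 months called 2 members higher with crocidolite than with 80 µg MWCNT, 4.44% of the 45 beside 0.83% of all genes. Melk ran from 3.84 through 4.15 to 4.36 at 80 µg MWCNT and from 4.24 through 4.68 to 4.85 with crocidolite, and 6 of 7 crocidolite mice lay above every 80 µg mouse (0.56 ± 0.15, adjusted p = 0.0331). Bub1b ran from 3.92 through 4.46 to 4.79 and from 4.67 through 4.95 to 5.08, with 5 of 7 above (0.44 ± 0.12, adjusted p = 0.0437). In all, 42 of 45 members lay higher with crocidolite, with a median difference of 0.25, and 18 had an unadjusted p under 0.05. The count of 2 became 0 without 80 µg mouse 2, without any one of crocidolite mice 1, 4, 5 and 6, without arrays of low correlation or without arrays of the title word, and 4 without 80 µg mouse 8. Of the 9 macrophage markers 2 were higher with crocidolite in the same comparison, Atp6v0d2 (1.05 ± 0.25, adjusted p = 0.0115) and Plet1 (0.47 ± 0.12, adjusted p = 0.017), and the list's median difference was 0.47. The list's mean was 7.32 to 7.65 with crocidolite and 6.76 to 7.75 at 80 µg MWCNT, and its part was not tested. For Mki67 the difference between the fibres was 0.35 (95% interval from 0.06 to 0.64, adjusted p = 0.281). At 1 month no member was called between the fibres (0.0541% of all genes), with a median difference of -0.11, and at 6 months none (0.0271%), with a median of -0.01. The doses differed in mass, 80 and 120 µg, and the fibres in form, so these values compare the groups as they were dosed.

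**Figure D5:**
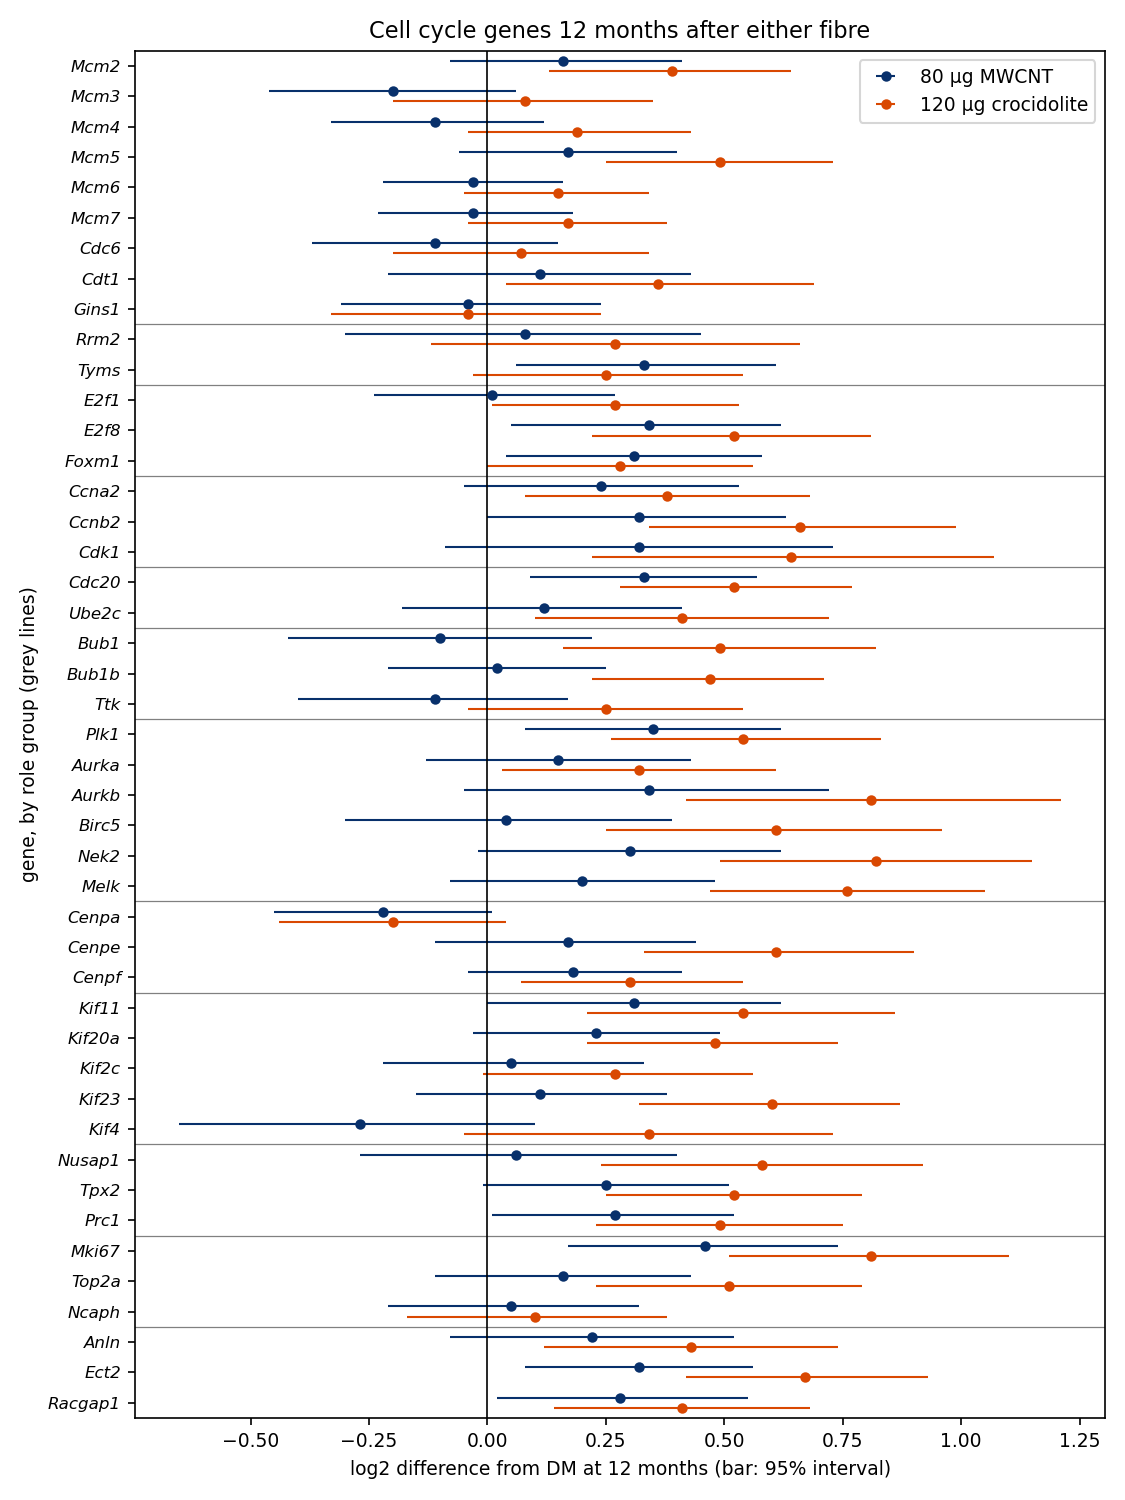
Log2 difference from DM at 12 months with its 95% interval for each measured member (rows, by role), after 80 µg MWCNT (blue) and 120 µg crocidolite (orange). Crocidolite points lie to the right of the MWCNT points for 42 of the 45 members, from -0.20 for Cenpa to 0.82 for Nek2, and MWCNT points run from -0.27 for Kif4 to 0.46 for Mki67.

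The change of each effect with time was tested as the 12-month effect minus the 1-month effect. For 80 µg MWCNT no member passed, beside 0.00902% of all genes called in either direction, and the members' median change was -0.23. Bub1b changed by -0.51 (95% interval from -0.84 to -0.18, adjusted p = 0.414), Top2a by -0.44 (from -0.82 to -0.06, adjusted p = 0.573) and Mki67 by -0.26 (from -0.66 to 0.14, adjusted p = 0.805). For crocidolite no member passed either, beside 0.0541% of all genes, and the median change was 0.20. Mki67 changed by 0.20 (from -0.24 to 0.64). A change of the effect with time was thus not detected for any single member, which does not show that the effects stayed alike.

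The DM mice of different times differed in age and in time since the vehicle was given, which cannot be told apart here. The title word was carried by 4, 1 and 3 of 8 DM mice at 1, 6 and 12 months. At 6 months no member was called lower than at 1 month (0.018% of all genes), although 9 of 45 lay higher and the others lower, with a median difference of -0.16. At 12 months 1 member was called lower, beside 0.437% of all genes. It was Ect2, which ran from 6.12 through 6.45 to 6.66 at 1 month and from 5.59 through 5.90 to 6.14 at 12 months (-0.50 ± 0.12, adjusted p = 0.0159). The ranges overlapped between 6.12 and 6.14. That call was lost without DM mouse 5 of 12 months, and also without arrays of the title word and without mice high in other tissue markers. The Ect2 difference at 6 months was -0.50 as well (adjusted p = 0.0517).

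Further genes of the pathway were read from lists of genes outside the 47. At 12 months after crocidolite 4.31% of all genes were called higher, and no list was tested against that share. A single call in a short list is therefore not read as a result about that list. Of 42 other mitotic genes measured, 5 were higher at 12 months after crocidolite, led by Nuf2 (0.72 ± 0.18, adjusted p = 0.00395), a kinetochore subunit that grips microtubules, and Cep55 (0.59 ± 0.17, adjusted p = 0.0132), which acts in abscission. Of 18 genes of replication-linked repair and chromatin, 2 were higher: Chaf1b (0.45 ± 0.13, adjusted p = 0.0213), a histone loader of the fork, and Dtl (0.40 ± 0.13, adjusted p = 0.0452), which directs the destruction of Cdt1. Of 27 other DNA replication genes none was called there. Of 8 CDK inhibitors Cdkn3 was higher (0.58 ± 0.17, adjusted p = 0.0206), a phosphatase of CDKs made in dividing cells. Of 7 cyclins and CDKs of G1, Ccnd1, cyclin D1, was higher (0.43 ± 0.08, adjusted p = 1.55e-05), also than after 80 µg MWCNT (0.31 ± 0.08, adjusted p = 0.014). Of 18 RB, E2F and DREAM regulators, E2f7 was higher (0.48 ± 0.12, adjusted p = 0.00413), the close relative of E2f8.

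One month after 80 µg MWCNT, 1 of the other mitotic genes, Hmmr (0.49 ± 0.11, adjusted p = 0.00374), a spindle and hyaluronan-binding protein, and 2 of the repair and chromatin genes, Uhrf1 (0.54 ± 0.14, adjusted p = 0.0135), which keeps DNA methylation through replication, and Dtl (0.51 ± 0.13, adjusted p = 0.0103), were higher. None of the CDK inhibitors, G1 genes, regulators or other replication genes was called. Of all genes 1.69% were called higher in this comparison. After crocidolite at 1 month, Uhrf1 (0.58 ± 0.16, adjusted p = 0.0106), Brca1 (0.57 ± 0.18, adjusted p = 0.0401), a repair gene of S phase, and Cdca8 (0.50 ± 0.16, adjusted p = 0.0444), of the chromosomal passenger complex, were higher, and Cdkn1c (-0.66 ± 0.18, adjusted p = 0.0144), the CDK inhibitor p57, was lower. In that crocidolite comparison 2.93% of all genes were called higher and 2.83% lower. At 6 months the only call among these lists in the exposed groups was Orc5 (-0.43 ± 0.11, adjusted p = 0.0132), an origin recognition subunit, lower with crocidolite. There 2.23% of all genes were called lower.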

How the data were processed

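Expression in whole lung was measured on Affymetrix whole-transcript arrays, 139 for 138 mice, from RNA extracted with a mirVana kit, per the labels. The authors deposited log2 values for 41345 features. Per the submitters' processing notes the tools included RMA, oligo and limma. Their versions, roles and any build were not given in the sources used here. Values were used as deposited. A platform table paired 23521 features with 1 gene symbol, 1814 with several and 16010 with none. Of the single-symbol features, 23328 matched a RefSeq gene by Entrez number and no symbol changed. The highest-mean feature per gene left 22180 genes. The 2 arrays of 1 mouse, given 1 µg MWCNT and taken at 1 month, were averaged. Of these 2 arrays 1 carries the title word. The mouse counted as without the word and stayed in when arrays with the title word were left out.

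One limma model (version 3.58.1, R 4.3.3) had a mean per group (120 residual degrees of freedom) and empirical Bayes moderation. Tests were two-sided, over 25 comparisons, each with its own Benjamini-Hochberg adjustment. The scripts were tested on simulated data. Apart from the mouse with 2 arrays, each sample is a separate mouse, and the number of mice limits the precision. Levels are given for Mki67, Top2a and, in each comparison, the called member with the largest difference within its role. They are the lowest, median and highest of a group, or every mouse where a group held 5. Of genes outside the 47, up to 2 higher and 2 lower per list and comparison are named, by size. Members and gene lists were chosen with earlier results of these data known. Alternatives were other array scalings, the title word as a covariate or a filter, the fitted groups, a filter on dim genes, the feature per gene, arrays or mice set aside, the moderation, and leaving out each mouse.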

Additional observations from a re-analysis of the deposited data

Results flagged for a closer look

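In 54 checks of a group for a mouse far from the others (18 groups, each for the mean over the 45 members, Mki67 and Top2a), 5 mice stood apart, and chance alone flags about 1 in 20 groups. For the mean over the members, 40 µg MWCNT mouse 2 at 1 month was highest at 5.17, with the next at 5.06, and DM mouse 2 at 12 months was lowest at 4.48, with the next at 4.67. That DM mouse was the lowest of its group for 20 of the 45 members and for 38.3% of all genes, and is among the 10 arrays of low correlation. Without those arrays the crocidolite count at 12 months was 19 in place of 22. For Mki67, 80 µg MWCNT mouse 7 at 1 month was highest at 7.40, with the next at 7.05. For Top2a, 1 µg MWCNT mouse 6 at 1 month was highest at 5.74, with the next at 5.29, and 40 µg MWCNT mouse 1 at 12 months was lowest at 4.65, with the next at 5.28. The last is also among the arrays of low correlation. No member's effect differed between 1 and 12 months by the test of that difference.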

How the results depend on the processing

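No paired analysis was possible because the labels give no replicate numbers, and the numbers used here follow the order of deposition. At 1, 10 and 80 µg MWCNT at 12 months, 1 and 10 µg at 1 and 6 months, 40 µg at 12 months, between the fibres at 1 and 6 months and in both tests of change with time, no member was called under any setting tried. No called member changed direction under the settings tried other than leaving out single mice, for which the direction of single members was not checked. With genes above the median level 43 of the 74 calls could be compared. Leaving out arrays with the title word ended 53 of 74 calls of single members, more than any other setting. It gave 1 call at 80 µg and 1 month, 0 with crocidolite at 1 month, 4 in the 1-month trend, 1 at 40 µg and 0 at 80 µg at 6 months, 3 in the 6-month trend, 4 with crocidolite at 12 months, 0 between the fibres and 0 in DM at 12 months. With the word as a covariate and all mice kept, 71 of the 74 calls stayed and 3 no longer passed. The calls between the fibres at 12 months were then 4. Fitting the compared groups alone gave 1 at 40 µg and 0 with crocidolite at 1 month, 1 at 40 µg, 0 at 80 µg and 5 with crocidolite at 6 months, 1 between the fibres and 1 in the trend at 12 months. Restricting to genes above the median level, where 22 members were tested, gave 2 at 40 µg, 1 with crocidolite and 9 in the trend at 1 month, 13 with crocidolite, 1 between the fibres and 2 in the trend at 12 months, and 1 lower in DM at 6 months. Quantile normalization gave 1 at 40 µg at 1 month, 2 in the 12-month trend and 2 lower in DM at 6 months. Centring gave 2 at 80 µg at 6 months, 1 between the fibres, 2 in the 12-month trend and 2 lower in DM at 6 months. Without 10 arrays of low correlation there were 1 at 40 µg and 0 with crocidolite at 1 month, 0 between the fibres and 1 lower in DM at 6 months. Without mice high in other tissues there were 2 at 80 µg, 2 with crocidolite and 4 in the trend at 6 months, 1 between the fibres and 0 in DM at 12 months. Trended and robust moderation gave 1 at 40 µg at 1 month, 1 between the fibres and 1 lower in DM at 6 months. Leaving out single mice gave 0 to 1 at 40 µg, 6 to 11 at 80 µg and 1 to 5 with crocidolite at 1 month, 1 to 2, 1 to 7 and 3 to 12 at 6 months, 18 to 23 with crocidolite and 0 to 4 between the fibres at 12 months, and 0 to 2 and 0 to 1 lower in DM at 6 and 12 months. The causes of these changes were not tested. Some settings also leave fewer mice or genes, and that loss cannot be told apart from what the setting selects. Of the 45 members 22 lay above the median signal of all genes.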
